A study of Mus musculus with 20 samples.

Results

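Oxidative phosphorylation is carried out by 5 protein complexes of the inner mitochondrial membrane, and the genes described here are the nuclear genes of these complexes that could be measured in activated mouse CD8 T cells. The members were chosen by gene symbol alone: every probe set with 1 annotated symbol beginning with Nduf and then a, b, c, s or v, with Sdha to Sdhd, with Uqcr, with Cox4 to Cox8, or with Atp5. The rule took 98 probe sets of 71 genes, out of 8251 genes with a symbol of their own on the array, and the brightest probe set stood for each gene. A further 10 probe sets carried several symbols, genes such as Cox7c, Ndufa11 and Ndufs6 among them, and were left out. By complex, the members were 4 core, 25 accessory and 2 assembly genes of complex I, 4 genes of complex II, 7 of complex III, 15 of complex IV and 14 of complex V. The symbols took in some genes that are no subunits of an assembled complex: Ndufaf1 and Ndufaf4 code for assembly factors, and Cox7a2l for a factor that joins complexes III and IV. They also took in forms of complex IV subunits known from muscle and heart (Cox6a2, Cox7a1, Cox8b) or testis (Cox6b2, Cox8c).

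The respiratory chain passes electrons from NADH (complex I) and succinate (complex II) through complex III to oxygen (complex IV), pumps protons on the way, and complex V, the ATP synthase, uses the proton gradient to make ATP. A few subunits of complexes I, III, IV and V are encoded in mitochondrial DNA and all others, including those measured here, in the nucleus. Resting T cells are known to rely on oxidative phosphorylation for most of their ATP, and activated T cells increase both glycolysis and the mass of their mitochondria.

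RNA was measured on 20 one-colour Affymetrix arrays of CD44lo CD8+ T cells, enriched by negative selection from lymph nodes of C57Bl6 mice aged 6 to 8 weeks that carry the OT-1 T cell receptor transgene, which recognises an ovalbumin peptide on H-2Kb. Stimulated cells were cultured with microspheres that carried the peptide with H-2Kb and the costimulatory protein B7-1 (Ag-B7). Ag-B7 was given with murine rIL-12 (3 arrays at 48 h and 1 each at 24 h and 72 h), with universal type I IFN (3 arrays at 48 h and 1 each at 24 h and 72 h), with trichostatin A (TSA, an inhibitor of histone deacetylases; 1 array at 72 h), or alone (4 arrays at 48 h and 1 each at 24 h and 72 h), and 3 arrays held naive cells at 0 h. All stimulated cultures also held human rIL-2. As a model this is limited to cells of 1 receptor and to a stimulus of beads without antigen-presenting cells, and the labels do not say how many mice went into a sample. The labels call the replicates biological, but name no separate mice or cultures, so that p-values measure the spread between these samples.

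Values are the authors' MAS5 signals, whose trimmed mean is nearly the same on every array. They are given here as log2(signal + 46.4), and differences on this scale understate the change of dim genes. Of the 71 members, 66 exceeded the 40th percentile of the array on at least 3 of the 13 replicated arrays and were tested within the 6279 genes that did so. Cox5a, Cox7a1, Cox8a, Ndufa12 and Ndufs4 did not. Of the 66, 56 exceeded that level on all 13 arrays, 9 missed it on at least 1 naive array, among them Atp5j2, Cox6a2 and Cox6b2, which missed it on all 3. Levels of different genes are not comparable, because each probe set has its own sensitivity.

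The naive arrays differed more among themselves than any other group, with correlations across genes of 0.827 to 0.932, against 0.948 to 0.966 within the stimulated groups. The ratio of 3' to 5' actin signal, a sign of RNA quality, was 1.13, 2.06 and 1.61 on naive replicates 1, 2 and 3, and at most 1.15 on the 17 stimulated arrays. The 10 markers of CD8 T cells on the array had summed signals of 84676 to 107361 in Ag-B7 cells at 48 h, against 74038 to 138047 in naive cells. Markers of several other cells were higher on the naive arrays. The summed signal of 3 erythroid and platelet markers was 411 to 693 in Ag-B7 cells at 48 h, against 6210 to 14512 in naive cells. That of 12 myeloid markers was 6113 to 8587, against 14369 to 16417 in naive cells, that of 7 stromal and endothelial markers 2105 to 3281, against 4602 to 11841, and that of 7 muscle and heart markers 738 to 911, against 872 to 2633, where the ranges overlapped slightly. Of 8 B cell markers the sums overlapped, at 5605 to 12411 in Ag-B7 cells and 12310 to 16802 in naive cells. The summed signal of 2 NK cell markers was 45.9 to 182 in Ag-B7 cells, against 149 to 526 in naive cells. That of 2 markers of CD4 and gamma-delta T cells was 2328 to 4704, against 1303 to 1947. In the test described below, 1 of these 2 was called higher in Ag-B7 cells and 1 lower. Their sum therefore gives no direction for these cell types. No probe set had a signal of 0 on any array, the lowest being 0.195. The part of RNA quality and of these markers in the differences from naive cells was not tested.

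Promoters of respiratory chain genes are known to bind nuclear respiratory factor 1 (NRF1) and the ETS family factor GABP (also called NRF2). Both motifs were searched in RefSeq promoter sequences of build GRCm38.p6, from 250 bases before to 50 after the annotated start, as GCGCANGCGC for NRF1 and CCGGAAG for the ETS core, on both strands. The 2 motifs share no letters in the promoters shown. Of the 71 members, 58 had a promoter sequence. The NRF1 motif was present in 12 of these (20.7%), against 5.19% of 27025 genes with a promoter sequence and 11.7% of the 5003 other genes tested here. The ETS core was present in 16 (27.6%), against 9.93% of all genes and 20.4% of the other genes tested. Either motif was present in 25 members (43.1%), against 14.0% of all genes and 29.3% of the other genes tested. A match is a description of the letters and does not show binding.

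Of the 4 promoters shown, the first belongs to the gene with the largest rise in activated cells (Uqcr11, chr10:80406772-80407071, minus strand). Those of complex II come next, Sdhd (chr9:50603800-50604099, minus strand) with both motifs and Sdha (chr13:74350191-74350490, minus strand) with 3 NRF1 matches, the most of any member. Cox6b1 (chr7:30626065-30626364, minus strand) is shown because it holds the ETS core and was lower in activated cells. Capitals mark the motif letters.

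Uqcr11: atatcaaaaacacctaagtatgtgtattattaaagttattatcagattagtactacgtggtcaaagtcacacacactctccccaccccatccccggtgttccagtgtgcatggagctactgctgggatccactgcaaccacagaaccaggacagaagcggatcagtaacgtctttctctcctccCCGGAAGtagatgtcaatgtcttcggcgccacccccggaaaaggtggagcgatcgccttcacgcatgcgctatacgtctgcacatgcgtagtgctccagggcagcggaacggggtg

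Sdhd: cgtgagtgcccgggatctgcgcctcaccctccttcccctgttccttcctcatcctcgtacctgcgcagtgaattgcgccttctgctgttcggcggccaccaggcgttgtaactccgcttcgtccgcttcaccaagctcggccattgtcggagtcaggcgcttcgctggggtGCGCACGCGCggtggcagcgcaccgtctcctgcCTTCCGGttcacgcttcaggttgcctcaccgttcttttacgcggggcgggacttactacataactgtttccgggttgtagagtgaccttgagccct

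Sdha: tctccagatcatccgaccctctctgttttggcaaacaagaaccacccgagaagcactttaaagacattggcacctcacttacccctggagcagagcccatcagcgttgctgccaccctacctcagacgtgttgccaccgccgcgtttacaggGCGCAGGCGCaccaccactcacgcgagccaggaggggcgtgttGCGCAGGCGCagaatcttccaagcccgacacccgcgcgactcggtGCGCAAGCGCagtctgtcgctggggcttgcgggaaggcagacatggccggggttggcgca

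Cox6b1: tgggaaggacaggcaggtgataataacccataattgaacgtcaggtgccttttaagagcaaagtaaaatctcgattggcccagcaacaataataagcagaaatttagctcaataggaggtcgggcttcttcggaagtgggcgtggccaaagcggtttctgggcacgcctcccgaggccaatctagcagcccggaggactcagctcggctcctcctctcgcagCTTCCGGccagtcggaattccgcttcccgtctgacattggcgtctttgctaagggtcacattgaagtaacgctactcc

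The ETS core began 66 bases before the start in Uqcr11, 46 before it in Sdhd and 28 before it in Cox6b1, in the last 2 as its reverse complement CTTCCGG. The NRF1 match of Sdhd began 79 bases before the start, and those of Sdha 98, 55 and 10 bases before the start. Of the members called higher in Ag-B7 cells at 48 h, 36 had a promoter sequence and 18 of these held either motif. Of those called lower, 6 had one, and only that of Cox6b1 held a match. Of those not called, 11 had one and 5 held a match.

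The first comparison asks how activation by antigen and B7-1 changes the naive cell. After 48 h, 45 of the 66 members tested were higher in Ag-B7 cells than in naive cells (limma, two-sided, Benjamini-Hochberg adjusted p below 0.05 over all 6279 genes), against 26.1% of all genes tested. Lower were 7 members, against 35.6% of all genes, and 14 were not called. The median log2 difference of the 66 was 1.01, and that of all genes tested was -0.23. In bulk RNA, a changed number of cells of one type and a changed amount of RNA per cell cannot be told apart. All 4 Ag-B7 arrays lay above all 3 naive arrays for 45 members (24.4% of all genes) and below them for 6 (31.6% of all genes). Of the 56 members above the filter level on all 13 arrays, 41 were higher and 6 lower. No share was taken of all genes above that level on all 13 arrays. The shares of all genes tested include dimmer genes, which were called higher less often, so they are no background for this count. The rise was spread over complexes I, II, III and V, and complex IV was divided.

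**Figure D1:**
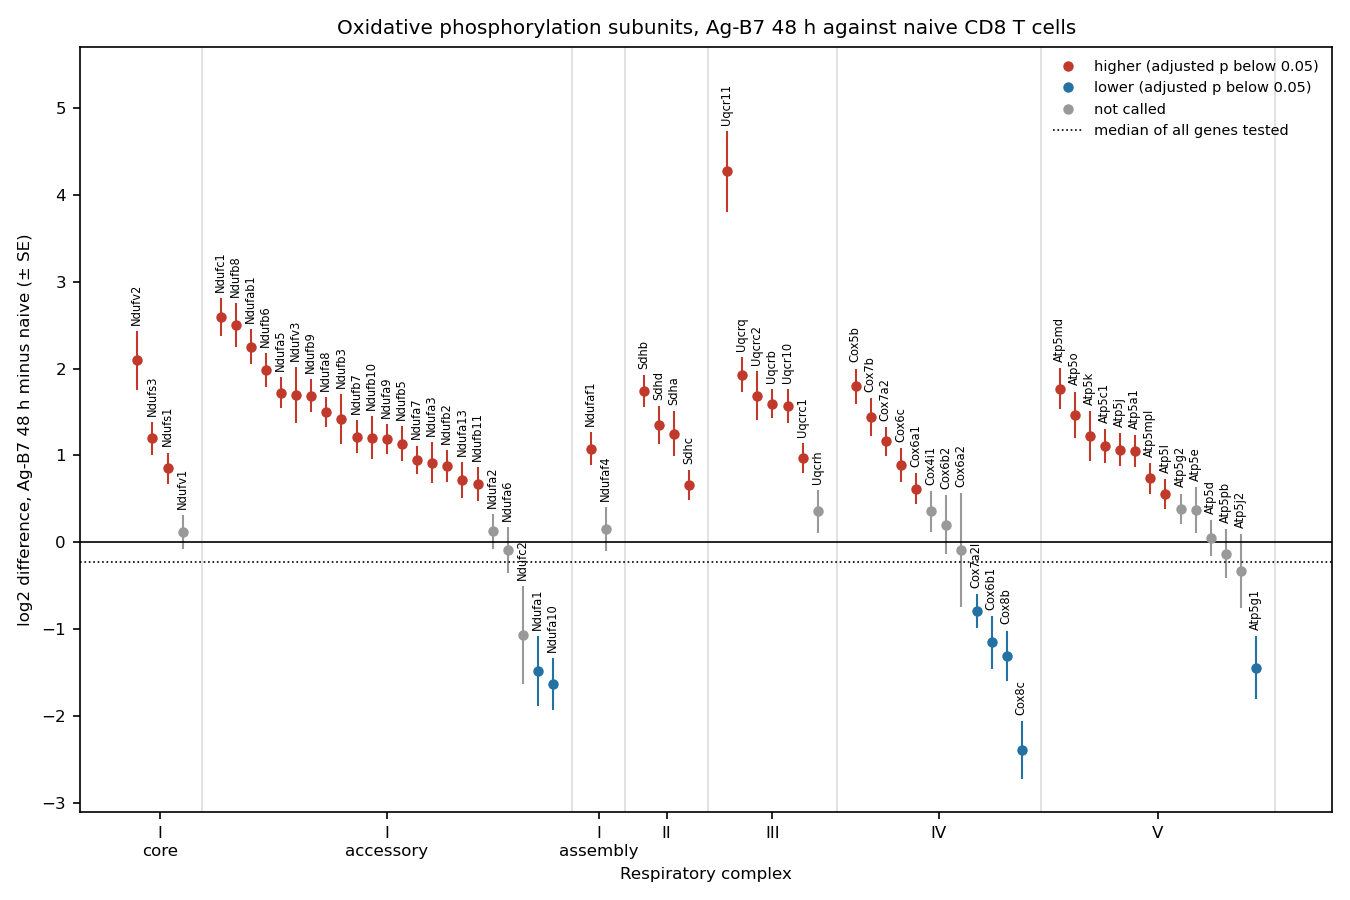
The vertical axis is the log2 difference between Ag-B7 cells at 48 h (4 arrays) and naive cells (3 arrays), with bars of 1 standard error, for the 66 subunit genes tested, grouped by complex along the horizontal axis. Complexes II and III hold no gene called lower, complex IV holds 5 called higher and 4 called lower, and the dotted line is the median of all genes tested, -0.23.

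Bright genes were called higher more often than dim ones throughout the array, so the counts are also given by signal level. The level is the mean over the 13 arrays of the fit, most of them stimulated. A gene's own rise or fall can therefore move it between ranges, so level and call are not independent. Among genes with a mean log2 level of 12 or more over the 13 arrays, 33 of 37 members were higher and 1 was lower, against 56.6% and 17.7% of all 634 such genes, and the median difference was 1.19 for the members and 0.72 for all. Between 10 and 12, 10 of 15 members were higher and 1 was lower, against 39.3% and 24.4% of 2144 genes. Below 10, 2 of 14 members were higher and 5 were lower, against 12.5% and 45.7% of 3501 genes. The rises were near the share of all such genes. The 5 lower ones were Atp5g1, Cox6b1, Cox8b, Ndufa1 and Ndufa10, a share no larger than that of all such genes. The 40th percentile of the signal was 220, 325 and 284 on naive replicates 1, 2 and 3. It was 121 to 187 on the Ag-B7 arrays at 48 h. The part of this in the falls of dim members was not tested.

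**Figure D2:**
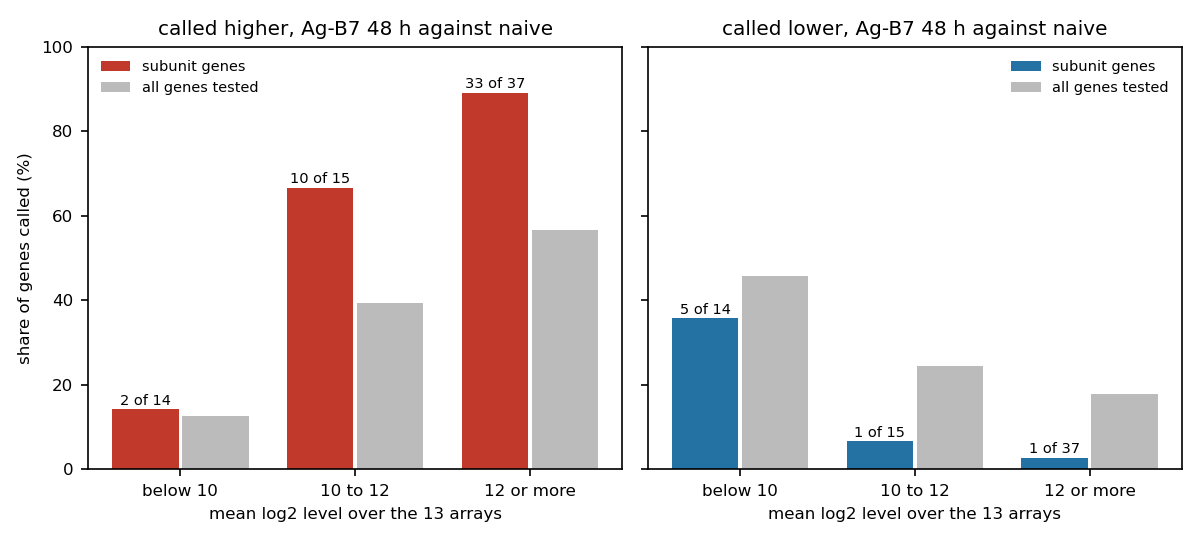
Bars show the share of genes in percent that were called higher (left) or lower (right) in Ag-B7 cells at 48 h than in naive cells, for the subunit genes (coloured) and for all genes tested (grey), in 3 ranges of the mean log2 level. In the 2 brighter ranges the share of subunit genes called higher, 10 of 15 and 33 of 37, exceeds that of all genes, 39.3% and 56.6%.

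The counts also depended on the scaling and on the naive arrays. With the 2 naive arrays of higher actin ratio left out, an alternative chosen after seeing the data, 34 members were higher and 3 lower, against 17.9% and 17.6% of all genes, with the lone naive array assumed to vary like the other groups. The median difference was then 0.69 for the members and -0.24 for all genes. Scaling to the spike-in controls moved the median of all genes to 1.54. It gave 58 members higher and 0 lower, against 64.1% and 0.908% of all genes. The controls had mean log2 levels of 13.4, 14.9 and 14.5 on naive replicates 1, 2 and 3. On the Ag-B7 arrays at 48 h they had 12.3 to 12.7. Whether they follow the amount of RNA per cell was not tested. Centring on the median moved the median of all genes to 0.41 and gave 54 and 4, against 40.7% and 15.9%. Relative to the median of all genes, the members' median was 1.24 higher as deposited and 0.83 higher after quantile normalization. It was also 1.24 higher under spike-in scaling and median centring. These shift all genes of an array alike and could not change this gap, so they are no check of it.

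Complex I oxidises NADH and is the largest of the chain. Of its 4 core genes, 3 rose. Ndufs1, the largest subunit and a carrier of iron-sulphur clusters, had log2 levels of 11.91, 11.53, 11.87 and 11.76 on the Ag-B7 arrays at 48 h, against 11.21, 10.58 and 10.96 on the naive arrays. The groups did not overlap, and the difference was 0.85 ± 0.18 (SE of limma, as for all differences below; n = 4 and 3; adjusted p = 7.8e-04), or 0.56 with adjusted p = 0.0501 against naive replicate 1 alone. Ndufv2, an iron-sulphur subunit of the module that takes up NADH, had 13.44, 13.46, 13.17 and 13.14 in Ag-B7 cells, against 11.78, 9.95 and 11.90 in naive cells. Its difference of 2.10 ± 0.34 (adjusted p = 7.7e-05) rested in part on the low value of naive replicate 2 and was 1.47 without that array. Ndufs3, of the arm that binds ubiquinone, rose by 1.20 ± 0.19 on the log2 scale (adjusted p = 6.5e-05). Ndufv1, which binds NADH, lay at 13.19, 13.63, 13.49 and 13.07 in Ag-B7 cells, against 13, 13.58 and 13.11 in naive cells, and its difference of 0.12 (95% interval -0.29 to 0.53; adjusted p = 0.617) did not pass the test.

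Accessory genes of complex I, which surround the catalytic core, were higher in 18 of 23 cases and lower in 2. The largest rises were those of Ndufc1, Ndufb8 and Ndufab1. Ndufc1, a subunit of the membrane arm, had 12.57, 12.65, 12.75 and 12 in Ag-B7 cells at 48 h, against 10.01, 9.79 and 9.90 in naive cells, a 6.03-fold difference (2.59 ± 0.22; adjusted p = 8.6e-08). Here the 3 naive arrays were close together and the lowest Ag-B7 array stood well above them. Ndufb8, also of the membrane arm, had 13.25, 13.24, 12.99 and 12.82, against 11.15, 9.87 and 10.70 in naive cells, a difference of 2.50 ± 0.25 (adjusted p = 6.7e-07). Ndufab1 codes for the mitochondrial acyl carrier protein, which serves both complex I and the synthesis of fatty acids and lipoic acid in mitochondria. It had 13.20, 13.04, 13.25 and 13.05, against 11.26, 10.29 and 11.10 in naive cells, a difference of 2.25 ± 0.20 (adjusted p = 2.0e-07). Ndufb5, of the membrane arm, rose by 1.13 ± 0.20 on the log2 scale.

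Ndufa10 and Ndufa1, both of the membrane arm, went the other way. Both had a mean log2 level below 10, where 45.7% of all genes were lower. Ndufa10 had 8.71, 9.01, 9.36 and 8.72 in Ag-B7 cells, against 10.27, 10.98 and 10.51 in naive cells, a 3.10-fold fall (-1.63 ± 0.30; adjusted p = 2.2e-04). Ndufa1 had 7.89, 7.85, 8.97 and 7.96, against 9.44, 10.44 and 9.06 in naive cells (-1.48 ± 0.41; adjusted p = 0.00506), with the highest Ag-B7 array close below the lowest naive one. The call of Ndufa1 was lost with median centring (-0.84; adjusted p = 0.0608) and against naive replicate 1 alone, where the difference was nearly as large (-1.27; adjusted p = 0.0846). Ndufa2, Ndufa6 and Ndufc2 were not called. Ndufa3 rose by 0.92 ± 0.24 on the log2 scale with its brightest probe set, although the lowest Ag-B7 array, 12.21, lay just under the highest naive one, 12.22, while a second probe set above the filter level lay 0.47 lower in Ag-B7 cells, and the mean over its probe sets gave 0.22 with adjusted p = 0.409. Of the assembly factors of complex I, Ndufaf1 rose by 1.08 ± 0.19, and Ndufaf4 was not called at 48 h.

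Complex II oxidises succinate and is also an enzyme of the citric acid cycle. All 4 of its genes rose. Sdhb, the iron-sulphur subunit, had 13.20, 13.35, 13.27 and 12.90 in Ag-B7 cells at 48 h, against 11.87, 11.14 and 11.30 in naive cells, a 3.34-fold difference (1.74 ± 0.19; adjusted p = 1.5e-06). Every Ag-B7 array lay above every naive one. The flavoprotein gene Sdha rose by 1.25 ± 0.26 and the membrane anchors Sdhd and Sdhc by 1.35 ± 0.22 and 0.66 ± 0.17. For Sdha the value against naive replicate 1 alone was 0.62 with adjusted p = 0.0950.

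In complex III, which passes electrons from ubiquinol to cytochrome c, 6 of 7 genes rose. Uqcr11, its smallest subunit, had the largest difference of the 66 genes: 12.40, 12.87, 12.20 and 11.88 in Ag-B7 cells at 48 h, against 9.79, 7.09 and 7.34 in naive cells. The fold was 19.3 (4.27 ± 0.47; adjusted p = 1.6e-06). The groups were far apart, but the naive arrays differed widely among themselves and only 1 of them exceeded the filter level, so that the size is uncertain: the difference was 5.13 without naive replicate 1 and 2.55 against that array alone. Uqcrq, a small subunit, had 14.23, 14.30, 14.41 and 14.32, against 12.76, 11.83 and 12.56 in naive cells (1.93 ± 0.20; adjusted p = 1.1e-06). Uqcrc1, a core protein of the complex, rose by 0.97 ± 0.18, Uqcrc2, the other core protein, by 1.69 ± 0.29, and the small subunits Uqcrb and Uqcr10 by 1.59 ± 0.17 and 1.57 ± 0.20. The hinge protein gene Uqcrh had a difference of 0.36 (95% interval -0.18 to 0.89; adjusted p = 0.229).

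Complex IV, cytochrome c oxidase, was the divided one: of 12 genes tested, 5 rose, 4 fell and 3 were not called. Cox5b, a subunit on the matrix side, had 13.76, 13.77, 13.46 and 13.35 in Ag-B7 cells at 48 h, against 12.15, 11.35 and 11.86 in naive cells (1.80 ± 0.20; adjusted p = 2.3e-06). Cox7b, Cox7a2 and Cox6c rose by 1.44 ± 0.22, 1.16 ± 0.17 and 0.89 ± 0.19. Cox6a1, the form of subunit 6a found in most tissues, rose by 0.62 ± 0.18 (adjusted p = 0.00717), with 14.33, 14.45, 14.25 and 13.95 in Ag-B7 cells, against 13.79, 13.63 and 13.46 in naive cells. Its difference was 0.35 after quantile normalization and 0.46 against naive replicate 1 alone, where the call was lost (adjusted p = 0.145). Its muscle and heart counterpart Cox6a2 had 6.20, 8.45, 7.29 and 9.21, against 7.22, 8.13 and 8.29 in naive cells, and the 4 Ag-B7 arrays spanned a wider range than the 3 naive ones.

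The 4 genes of complex IV that fell were 2 tissue forms, a common form and a supercomplex factor. Among them, Cox8b and Cox6b1 had mean log2 levels below 10, where 45.7% of all genes were lower. Cox8c, the testis form of subunit 8, had 9.52, 9.70, 10.11 and 9.47 in Ag-B7 cells, against 11.29, 13.09 and 11.90 in naive cells, a 5.24-fold fall (-2.39 ± 0.33; adjusted p = 1.7e-05), or -1.59 against naive replicate 1 alone and -1.48 for the mean of its probe sets. Cox8b, the muscle and heart form, had 9.08, 9.38, 9.56 and 8.88, against 9.94, 11.08 and 10.57 (-1.31 ± 0.29; adjusted p = 0.00116), and its call was lost against naive replicate 1 alone (-0.72; adjusted p = 0.140). Both probe sets were above the filter level on all naive arrays although these forms are known from other tissues, and whether they also bind other transcripts was not tested. Cox6b1, the common form of subunit 6b, had 8.66, 8.41, 9.70 and 8.20, against 9.74, 10.00 and 9.94 in naive cells (-1.15 ± 0.31; adjusted p = 0.00407), and Ag-B7 replicate 3 came close to the naive arrays. For Cox6b1 the call was lost with median centring (-0.50; adjusted p = 0.130) and against naive replicate 1 alone, where the difference was nearly as large (-0.996; adjusted p = 0.100). Cox6b2, the testis form, was not called, and a second probe set of it that passed the filter lay 1.35 lower in Ag-B7 cells. The form of subunit 4 found in most tissues, Cox4i1, was not called (0.36; 95% interval -0.15 to 0.86), although its 4 Ag-B7 arrays lay above the 3 naive arrays, and its second probe set lay 1.08 lower in Ag-B7 cells.

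Cox7a2l (also called SCAF1) helps complexes III and IV form supercomplexes, and C57BL/6 mice are known to carry a shortened form of it. It had 12.62, 12.53, 12.23 and 12.40 in Ag-B7 cells at 48 h, against 13.68, 12.76 and 13.28 in naive cells (-0.79 ± 0.19; adjusted p = 0.00222). Among the 37 bright members it was the one that fell. Its sign depended on the scaling, as did that of the median of all genes: the value was -0.79 where the median of all genes was -0.23 as deposited, -0.15 (adjusted p = 0.660) where it was 0.41 after median centring, and 0.98 where it was 1.54 with the spike-in controls. The last 2 scalings shift all genes of an array alike. Its paralog Cox7a2, a subunit of complex IV itself, had 13.58, 13.81, 13.60 and 13.35, against 12.67, 12.26 and 12.33 in naive cells, so that the pair moved in opposite directions as deposited and after quantile normalization.

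Complex V had 8 of 14 genes higher and 1 lower. Atp5a1, the alpha subunit of the catalytic head, had 14.52, 14.50, 14.46 and 14.24 in Ag-B7 cells at 48 h, against 13.61, 12.90 and 13.62 in naive cells (1.05 ± 0.18; adjusted p = 1.3e-04). Atp5md (DAPIT), a small membrane subunit that helps the enzyme form dimers, had the largest rise of the complex, 1.77 ± 0.23, with 14.23, 14.32, 14.30 and 13.72, against 12.61, 12.46 and 12.05 in naive cells. Atp5o (OSCP) and Atp5j (F6), of the stalk that holds the head still, rose by 1.47 ± 0.27 and 1.06 ± 0.19, and Atp5c1, the gamma subunit of the rotor, by 1.11 ± 0.20. Atp5l, the g subunit, rose by 0.56 ± 0.17 (adjusted p = 0.0101), and was not called after quantile normalization (0.26; adjusted p = 0.0644) or against naive replicate 1 alone (adjusted p = 0.242). Its second probe set lay 0.29 lower in Ag-B7 cells, and the mean of its probe sets gave 0.13 (adjusted p = 0.457). The genes Atp5g1 and Atp5g2 code for the same c subunit of the membrane ring with different import signals. Atp5g1 had 7.95, 8.28, 9.11 and 7.86 in Ag-B7 cells, against 9.06, 10.46 and 9.71 in naive cells (-1.44 ± 0.36; adjusted p = 0.00278), with Ag-B7 replicate 3 just inside the naive range. The call of Atp5g1 was lost against naive replicate 1 alone (-0.76; adjusted p = 0.217), and its second probe set lay 1.52 lower in Ag-B7 cells. Atp5g2 had a difference of 0.38 (95% interval 0.013 to 0.76; adjusted p = 0.0671). Atp5d, of the rotor, was not called, and its 4 other probe sets were divided, 2 higher and 2 lower in Ag-B7 cells.

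Over all members, 27 dimmer probe sets were present, of which 13 passed the filter. Of these 13, 7 had the sign of the brightest probe set and 6 the opposite sign. These 6 were all lower in Ag-B7 cells and belonged to Atp5d, Atp5l, Cox4i1, Cox6b2 and Ndufa3. A single probe set therefore does not settle the direction of these 5 genes.

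IL-12 and type I IFN are known to act on CD8 T cells as signals beside antigen and B7-1. Against naive cells, Ag-B7 with IL-12 gave 43 members higher and 7 lower (24.8% and 34.0% of all genes), and Ag-B7 with IFN gave 41 higher and 7 lower (25.3% and 33.1% of all genes). Every array with IL-12 lay above every naive array for 46 members and below for 7 (25.6% and 34.8% of all genes), and every array with IFN for 42 and 7 (26.9% and 35.4% of all genes). Both comparisons share the naive arrays with that of Ag-B7 alone. Against naive replicate 1 alone, the counts were 30 and 3 with IL-12 (17.8% and 17.4% of all genes) and 26 and 3 with IFN (18.2% and 16.3% of all genes). Uqcr11 was 4.40 ± 0.50 higher with IL-12 and 3.96 ± 0.50 higher with IFN than in naive cells, and Cox7a2l differed by -1.07 ± 0.21 and -1.28 ± 0.21.

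Between the stimulated groups at 48 h, limma called 0 of the 66 members. In Ag-B7 cells with IL-12 against Ag-B7 cells, 0.382% of all genes were called higher and 0.239% lower, at an adjusted p below 0.05. At an unadjusted p below 0.05, 0 members passed. No share of all genes was taken at that looser threshold in these comparisons. The members' median difference was -0.07 and the largest difference in size was 0.45. With the replicate number as a block, which pairs these arrays, the median was -0.16, 2 members had an unadjusted p below 0.05 and 0 were called. In Ag-B7 cells with IFN against Ag-B7 cells, 0.414% of all genes were called higher and 0.0159% lower. The members' median was -0.14, that of all genes 0.003, and 55 of 66 differences were negative. With IL-12, 44 of 66 were negative, and the median of all genes was -0.008. The members were measured on the same arrays, so their signs are not separate evidence. With IFN 1 member, Cox7a2l, had an unadjusted p below 0.05. It had 12, 11.85 and 12.02 with IFN, against 12.62, 12.53, 12.23 and 12.40 in Ag-B7 cells. The arrays did not overlap, and the difference was -0.49 ± 0.19 (95% interval -0.90 to -0.08; adjusted p = 0.825). With IL-12 Cox7a2l had 12.18, 12.25 and 12.08. In cells with IL-12 against cells with IFN, 0.287% of all genes were called higher and 0.653% lower. There, 0 members had an unadjusted p below 0.05, and the largest difference was 0.60, that of Cox6b2. The half-width of the 95% interval had a median of 0.44 for both comparisons with Ag-B7 alone. A missing call does not show that the groups were alike.

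**Figure D3:**
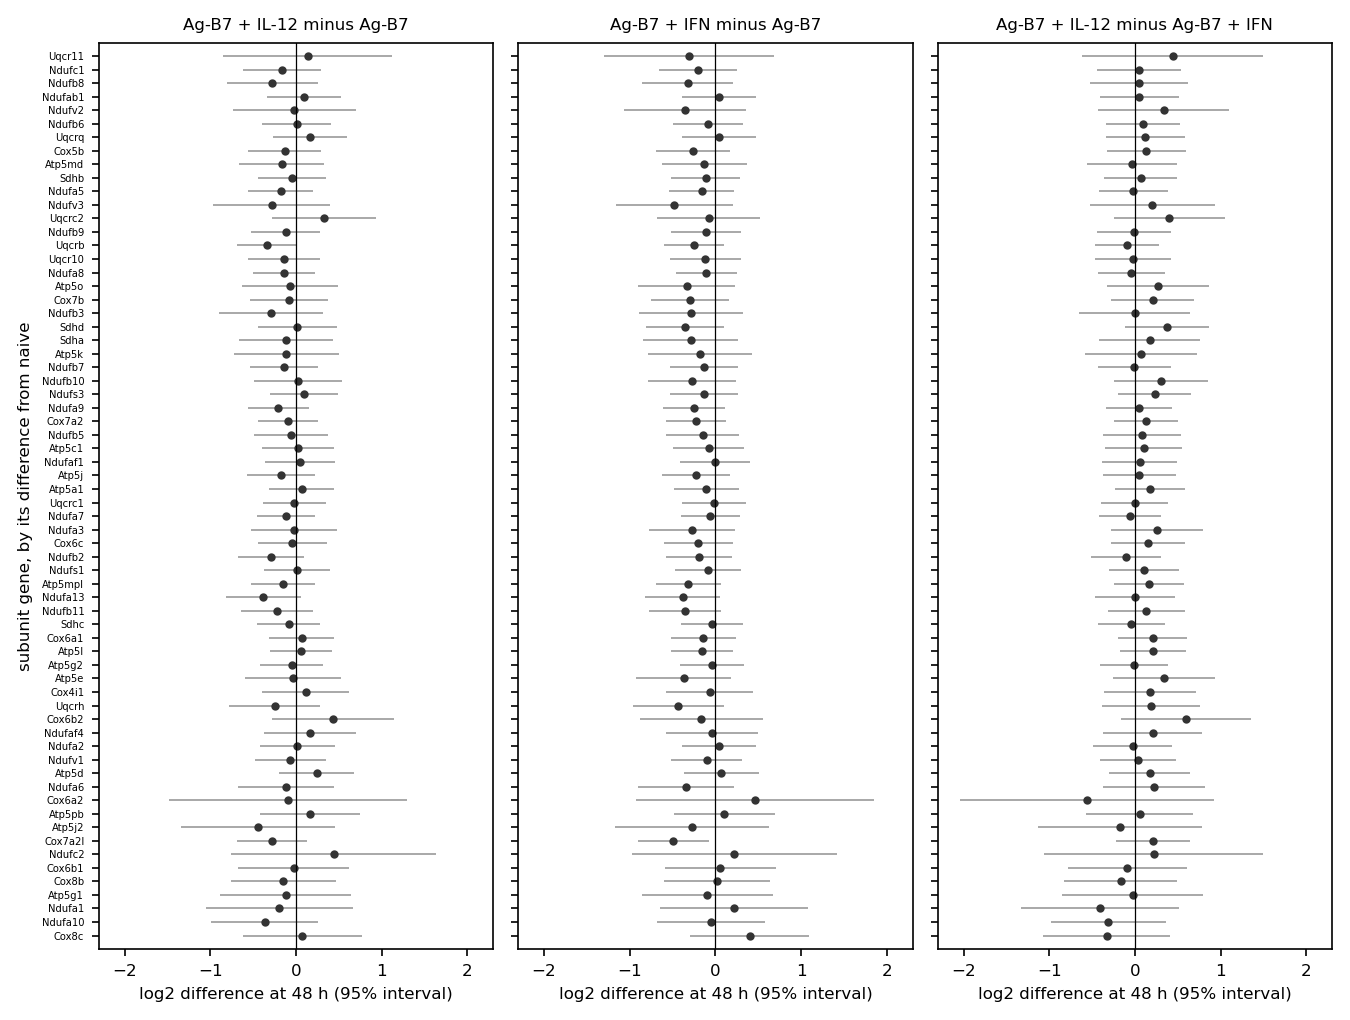
Points are the log2 differences at 48 h of the 66 subunit genes, 1 gene a line in the order of their difference between Ag-B7 and naive cells, for Ag-B7 with IL-12 minus Ag-B7 (left), Ag-B7 with IFN minus Ag-B7 (middle) and Ag-B7 with IL-12 minus Ag-B7 with IFN (right), and lines are 95% intervals from limma. The largest differences in size are 0.45, 0.49 and 0.60, and 0 genes are called in any panel.

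The course over time rests on 1 array for each stimulation at 24 h and 72 h, so the values are given with no test. Already at 24 h, 28 of 66 members were at least 2-fold higher in Ag-B7 cells than the naive mean and 9 at least 2-fold lower, against 19.3% and 32.5% of all genes. With IL-12 at 24 h these counts were 24 and 7 (19.0% and 30.6% of all genes), and with IFN 25 and 8 (19.2% and 32.1% of all genes). Uqcr11 stood at 12.25, Ndufab1 at 13.51 and Ndufc1 at 12.24 with Ag-B7 at 24 h, each at least 2-fold above the naive mean. The 45 members called higher at 48 h had a median difference from the naive mean of 1.15 at 24 h, 1.22 at 48 h and 0.91 at 72 h with Ag-B7 alone. They were chosen on the 48 h arrays, so their value at 48 h is a description and gives no support to the rise. Between 48 h and 24 h with Ag-B7, 0 members were at least 2-fold higher and 1 was lower, against 4.09% and 1.54% of all genes. That member was Ndufaf4, an assembly factor of complex I, which had 10.30 at 24 h, 8.76, 8.50, 8.64 and 8.63 at 48 h and 7.75 at 72 h, against 8.26, 8.52 and 8.66 in naive cells. With IL-12 it had 9.47 and with IFN 10.14 at 24 h, so all 3 arrays at 24 h stood above all other arrays of this gene.

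**Figure D4:**
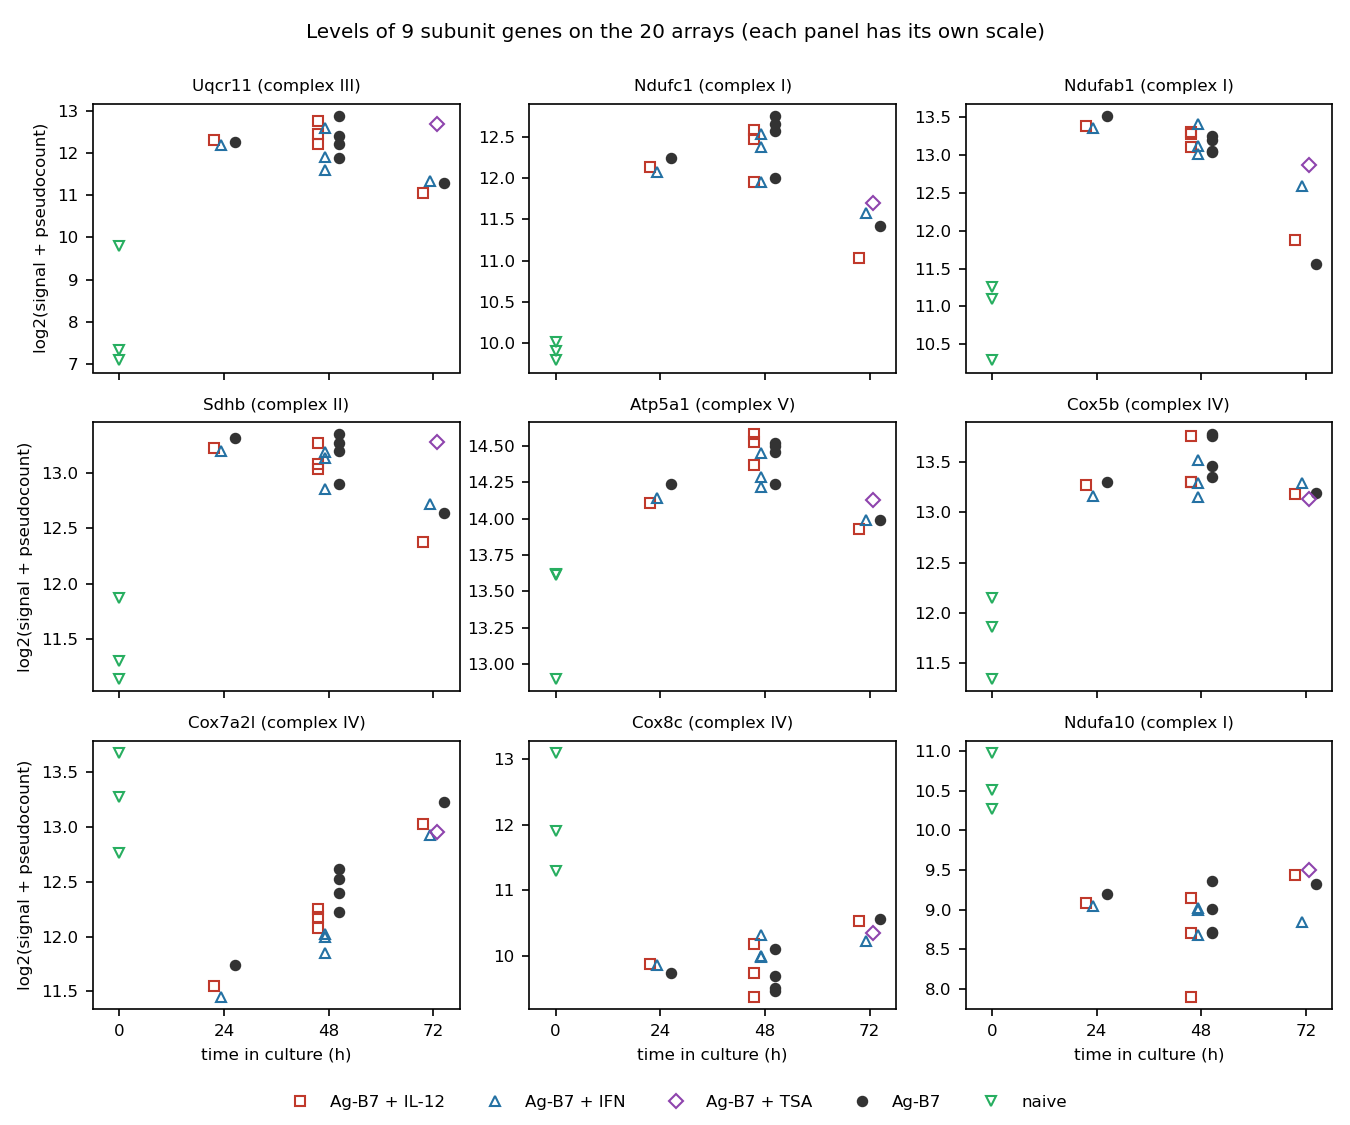
Each panel shows log2(signal + 46.4) of 1 gene on all 20 arrays against the time in culture in hours, with a symbol for each stimulation, slightly offset within a time, and its own vertical scale. Uqcr11, Ndufc1, Ndufab1, Sdhb, Atp5a1 and Cox5b lie above the naive arrays at 24 h and 48 h, and Cox7a2l lies at 11.45 to 11.74 at 24 h and at 12.93 to 13.23 at 72 h.

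Cox7a2l had the reverse course. With Ag-B7 it stood at 11.74 at 24 h and at 13.23 at 72 h, and with IL-12 at 11.55 and 13.03, with IFN at 11.45 and 12.93. The arrays at 72 h lay within the naive range of 12.76 to 13.68, and those at 24 h and 48 h below it. The other 6 members that fell were still below their lowest naive array with Ag-B7 at 72 h, by varying amounts. Cox8c had 10.57 (lowest naive array 11.29), which was above its 48 h range of 9.47 to 10.11. Ndufa10 had 9.33 (10.27), Cox8b 9.34 (9.94) and Atp5g1 8.73 (9.06). Cox6b1 had 9.34 (9.74). Ndufa1, with 9.03 (9.06), lay just under its lowest naive array, while its naive mean was 9.65. The median of the 7 members that fell was -1.47 from the naive mean at 24 h, -1.44 at 48 h and -1.01 at 72 h.

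At 72 h with Ag-B7 alone, 20 members were at least 2-fold above the naive mean and 4 below it, against 13.3% and 16.1% of all genes. The counts were 16 and 3 with IL-12 (14.5% and 16.8% of all genes), 23 and 5 with IFN (16.4% and 21.0%) and 26 and 3 with TSA (15.8% and 17.7%). Set against the same stimulation at 48 h, 1 member was at least 2-fold higher and 6 were lower, against 9.16% and 6.59% of all genes, and the median difference was -0.25 for the members and 0.17 for all genes. Of the 66, the 72 h array lay below the range of the 4 arrays at 48 h for 30 members, within it for 28 and above it for 8. The 6 members were Ndufab1 (11.56 at 72 h, against 13.04 to 13.25 at 48 h), Uqcrq (13, against 14.23 to 14.41), Ndufb8 (11.81, against 12.82 to 13.25), Ndufc1 (11.42, against 12 to 12.75), Uqcr11 (11.28, against 11.88 to 12.87) and Ndufa5 (11.49, against 12.30 to 12.74), all of them called higher at 48 h than in naive cells. Cox6b2 was the one that was higher, at 9.25 against 7.18 to 8.53. With IL-12, 1 member was at least 2-fold higher and 7 lower at 72 h than at 48 h (9.30% and 6.39% of all genes), and with IFN 1 was higher and 0 lower (6.75% and 4.20% of all genes).

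**Figure D5:**
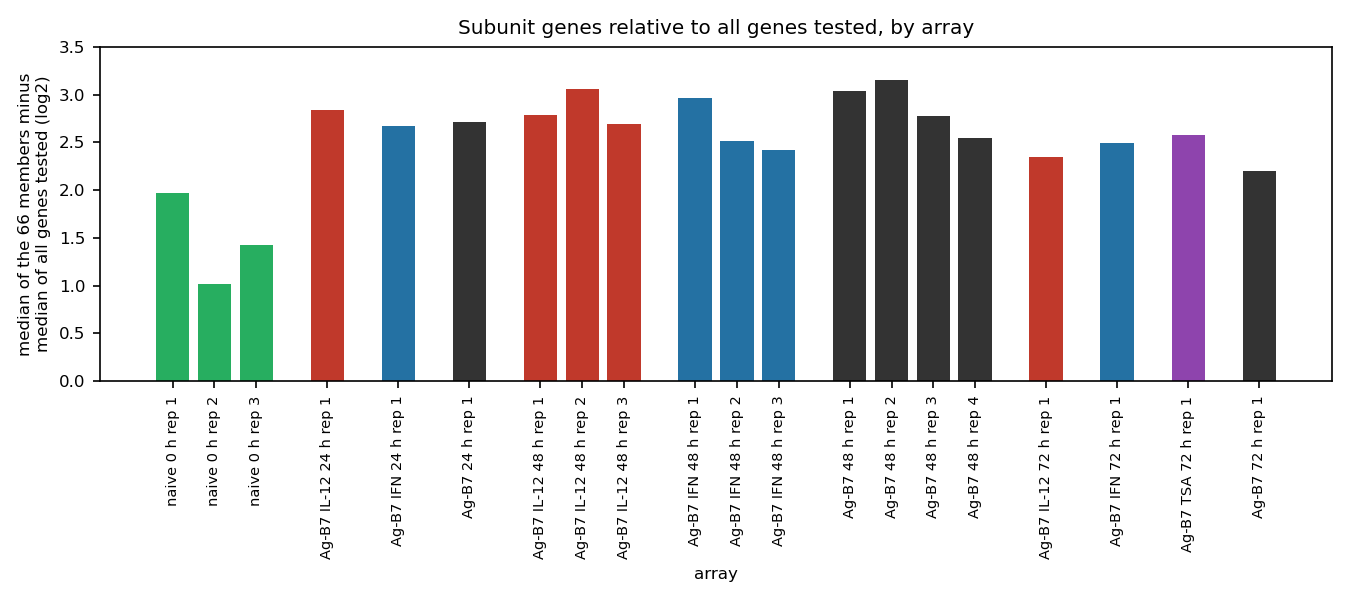
Bars show, for each of the 20 arrays, the median log2 level of the 66 subunit genes minus the median of all genes tested, coloured by stimulation and ordered by time. Naive arrays have 1.97, 1.01 and 1.43, the arrays at 48 h 2.42 to 3.16 and those at 72 h 2.20 to 2.57.

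Against Ag-B7 alone at the same time, few members differed by 2-fold on the single arrays. At 24 h, 1 member was higher with IL-12 (Ndufc2; 2.15% of all genes) and 1 with IFN (Cox6a2; 1.69% of all genes), and 0 were lower with either (1.27% and 1.21% of all genes). At 72 h, 1 was higher and 0 lower with IL-12 (5.22% and 4.14% of all genes), and 2 were higher and 1 lower with IFN (3.93% and 3.57% of all genes). Cox6a2 was among the higher ones with either cytokine at 72 h, at 9.47 with IL-12 and 9.42 with IFN, against 7.22 with Ag-B7 alone. It varied as widely among the 4 Ag-B7 arrays at 48 h, where it had 6.20 to 9.21.

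TSA was used to compare an inhibitor of histone deacetylases with the cytokines. At 72 h, 5 members were at least 2-fold higher with TSA than with Ag-B7 alone and 1 was lower, against 7.09% and 8.97% of all genes. The median difference was 0.13 for the members and 0.01 for all genes. The 5 were Uqcr11 (12.69 with TSA, against 11.28 with Ag-B7 alone), Uqcrq (14.36, against 13), Ndufab1 (12.87, against 11.56), Ndufaf4 (8.95, against 7.75) and Ndufb6 (13.81, against 12.62), and Ndufa6 was lower (10.46, against 11.63). All 5 had also been below their 48 h range with Ag-B7 at 72 h, Ndufaf4 below 8.50 to 8.76 and Ndufb6 below 13.20 to 13.51. Ndufa6 had been above its 48 h range of 10.51 to 11. The 5 of 66 members higher with TSA were near the share of all genes. Both counts rest on the same Ag-B7 array, which lay below the 48 h range for 30 of the 66 members. A low value on that array also makes a member higher with TSA, so the overlap is no separate result. Against IL-12 at 72 h, TSA gave 6 members higher and 1 lower (8.60% and 9.87% of all genes), and against IFN 4 higher and 2 lower (7.31% and 9.08% of all genes). Uqcr11, Ndufaf4 and Atp5l were higher in both. Against the 4 Ag-B7 arrays at 48 h, 2 members were at least 2-fold higher with TSA at 72 h and 0 lower (7.74% and 3.69% of all genes).

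Other genes that serve the same process were followed as lists, whose counts stand beside 26.1% of all genes higher and 35.6% lower. Of 7 tested genes that work with the chain and lie outside the symbol rule, 5 were higher and 1 lower in Ag-B7 cells at 48 h than in naive cells. Cycs, cytochrome c itself, differed by 1.64 ± 0.21, Cyc1, the cytochrome subunit of complex III, by 1.49 ± 0.17, and Atpif1, an inhibitor of complex V, by 2.10 ± 0.25. Dhodh, an enzyme of pyrimidine synthesis that feeds electrons into the chain, fell by 1.31 ± 0.25. Of 12 assembly factors 6 were higher and 1 lower, led by Cox17, which delivers copper to complex IV, at 2.70 ± 0.23. The citric acid cycle had 8 of 16 genes higher and 0 lower, with a median of 0.46. Components of mitochondrial ribosomes were higher in 50 of 60 cases and lower in 3, with a median of 1.36. Those of the protein import machinery were higher in 13 of 16 cases and lower in 0, with a median of 1.40. Mitochondrial carriers and membrane proteins had 7 of 12 higher and 2 lower, Slc25a4, the ATP and ADP exchanger, being higher by 1.59 ± 0.21.

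Outside the mitochondrion, glycolysis had 11 of 13 genes higher and 1 lower with a median of 2.62, the proteasome 31 of 33 higher and 0 lower with a median of 1.53, and cytosolic ribosomal proteins 1 of 28 higher and 20 lower with a median of -0.95. Of 4 reference genes, 1 was higher (Hprt, 1.71) and 2 were lower (Actb, -1.92, and B2m, -1.17). Among 12 tested regulators of mitochondrial genes, 3 were higher and 2 lower, shares no larger than those of all genes. Myc rose by 2.45 ± 0.34, Ssbp1, which binds mitochondrial DNA, by 2.13 ± 0.22 and Yy1 by 0.84 ± 0.22, while Esrra, a nuclear receptor that binds promoters of chain genes, fell by 1.56 ± 0.26 and Polg2, of the mitochondrial DNA polymerase, by 1.75 ± 0.23. Gabpa, a subunit of GABP, had a difference of 0.48 ± 0.23 (adjusted p = 0.0831), and Tfam, which packages mitochondrial DNA, one of 0.75 ± 0.48 (adjusted p = 0.184). Ppargc1a, a coactivator of chain genes, did not pass the filter. Limma called 0 genes of these lists in Ag-B7 cells with IL-12 or with IFN against Ag-B7 cells at 48 h.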

How the data were processed

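RNA of CD8 T cells was measured on 20 one-colour arrays. The authors deposited linear intensity values from MAS5 for 12488 probe sets, the software being named per the submitters' processing notes and its version not given in the sources used here. Scaling to a common array mean, visible in the values, makes differences relative to the total signal of an array. Symbols came from the platform annotation. Values were taken as log2(signal + 46.4), the pseudocount being the median of the arrays' 20th percentiles, and filtered at the 40th percentile on at least 3 of 13 replicated arrays, which left 6279 genes. The 13 arrays were fitted by group in limma 3.58.1 (R 4.3.3) with a variance trend (9 residual and 7.62 prior degrees of freedom, median residual SD 0.372), with Benjamini-Hochberg adjustment and calls below 0.05. The number of arrays limits the precision. The script was tested on simulated data. Motifs were searched with Python 3.11.15.

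Alternatives were quantile, median and spike-in scaling (9 control probe sets), pseudocounts of 10 and 100, no filter and a stricter one, the mean of probe sets, a variance model without trend, the replicate number as a block, each replicate left out, and naive replicate 1 alone. Same-numbered Ag-B7 and IL-12 arrays at 48 h deviated together (correlations of 0.280, 0.279 and 0.276). For other pairs of groups at least 1 correlation of same-numbered arrays was below 0.1. IFN replicates 1, 2 and 3 had 0.112, -0.042 and -0.097 with the same-numbered Ag-B7 arrays. With Ag-B7 replicates 2, 3 and 4 they had 0.283, 0.278 and 0.454, so the block may not pair the IFN arrays rightly. Members named were the 5 largest called rises and falls of each comparison, the brightest and most changed of each complex, catalytic subunits, paralogs, members moving against their complex and those whose probe sets disagree, and further members stand in group sentences. Members and lists were chosen with earlier results of these data known.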

Additional observations from a re-analysis of the deposited data

Results flagged for a closer look

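Of the 34 members named by rule, 3 had 1 array of the 4 with Ag-B7 at 48 h that stood far from the other 3, where chance alone gives about 1 in 20 such groups. Atp5l was lowest on replicate 4, at 13.61 against 13.89 to 13.94 on the others. Atp5md was also lowest on replicate 4, at 13.72 against 14.23 to 14.32. Ndufa1 was highest on replicate 3, at 8.97 against 7.85 to 7.96. Replicate 4 also had the lowest median of the 66 members among these 4 arrays relative to all genes tested, 2.54 against 2.77 to 3.16.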

How the results depend on the processing

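Of the recomputed counts of called members, 279 stayed within 1.5 times and 9 did not, 8 of these being counts of falls from naive cells: 4 members were lower in Ag-B7 cells and 4 with IFN after median centring, 0 were lower with any of the 3 stimulations after spike-in scaling, and 3 in each of these comparisons against naive replicate 1 alone, where 26 were higher with IFN. Leaving out 1 array at a time gave 45 to 47 rises and 7 to 8 falls in Ag-B7 cells, 41 to 44 and 7 to 8 with IL-12, 39 to 44 and 6 to 7 with IFN, and 0 to 0 between stimulated groups. The 279 include the counts between stimulated groups, where a 0 that stays 0 is no check of stability. With the replicate block there were 45 rises and 7 falls in Ag-B7 cells, 43 and 7 with IL-12, 41 and 7 with IFN, and 0 between stimulated groups, where 2 members had an unadjusted p below 0.05 for IL-12 against Ag-B7, 4 for IFN against Ag-B7 and 0 for IL-12 against IFN; without it these were 0, 1 and 0. The block changed no count of calls by over 1.5 times. The members' median was -0.16 with it against -0.07 without it for IL-12 against Ag-B7 and -0.24 against -0.14 for IFN against Ag-B7. For IFN the block joined arrays of the same number, although Ag-B7 and IFN arrays of different numbers deviated together more. Spike-in scaling, under which the median of all genes was 1.54 in Ag-B7 cells, turned the sign of falls from naive cells: Atp5g1 to 0.33 in Ag-B7 cells, 0.0076 with IL-12 and 0.32 with IFN, Cox6b1 to 0.62, 0.39 and 0.76, Cox7a2l to 0.98, 0.50 and 0.57, Cox8b to 0.46, 0.12 and 0.57, and in Ag-B7 cells and with IFN Ndufa1 to 0.29 and 0.59 and Ndufa10 to 0.14 and 0.17. The mean of probe sets turned Ndufa3 to -0.14 with IFN. Of the recomputed values of single members and of medians over members, 67 lost their call, 7 moved, 17 changed sign and 1823 did neither. The causes were not tested. Dim probe sets, single arrays at 24 h and 72 h, the scaling and the spread of the naive arrays limit these values.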
